A study of Mus musculus with 4 samples.

Results

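In FAIRE-seq of the mouse dentate gyrus, 1080 of the 26592 regions that had a summit in all 4 libraries ranked higher in both libraries titled WT than in both titled Mbd1 KO. The series holds 82899 regions in all when summits within 250 bp of each other are joined. The 1080 members were chosen by the measured scores: the deposited score of each shared region was turned into a percentile from 0 to 100 within each library, and a region was kept if its lower WT percentile exceeded its higher Mbd1 KO percentile by 10 points or more. That gap is called the margin here. Since the scores of all 4 libraries made the choice, the gap between the titled groups at the members is a description and carries no test.

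The libraries came from dentate gyri of C57BL6 mice around 9 weeks old, 2 titled WT (wild type) and 2 titled Mbd1 KO (Mbd1 knockout). The sources used here do not give the knockout allele, the sex of the mice or the number of animals behind a library. Titles and genotype field conflict in the labels: in the field, WT 1 is a knockout and Mbd1 KO 2 a wild type, and both labels match for WT 2 and Mbd1 KO 1 alone. Libraries are named by title throughout. They held 38142 (WT 1), 46651 (WT 2), 56382 (Mbd1 KO 1) and 49671 (Mbd1 KO 2) summits, and their read depth is unknown.

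FAIRE-seq separates DNA with few nucleosomes from crosslinked chromatin by phenol and chloroform extraction, and sequences it. Promoters and enhancers in use are the usual sites of such DNA. MBD1 recognises DNA methylated at CpG and takes part in gene silencing. In the adult dentate gyrus, a layer of granule neurons with a niche of neural stem cells, it is known for its role in those stem cells. In bulk tissue a weaker signal in a region can come from fewer cells with that region open or from less open chromatin per cell, and these cannot be told apart.

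The number of members was near that of every other direction in which the 4 libraries can be set 2 against 2. The 1080 members were 4.06% of the shared regions. The same rule gave 1029 regions (3.87%) higher in both Mbd1 KO libraries than in both WT libraries. Grouped by the genotype field it gave 1194 (4.49%) higher in the field's wild-type pair, WT 2 and Mbd1 KO 2, and 1236 (4.65%) higher in its knockout pair, WT 1 and Mbd1 KO 1. The remaining arrangement gave 975 (3.67%) higher in WT 1 and Mbd1 KO 2 and 1008 (3.79%) higher in WT 2 and Mbd1 KO 1. Both directions of the genotype field thus held more regions than the titled WT direction, and the other 3 held fewer. The field's wild-type pair is both libraries numbered 2, and its knockout pair both numbered 1. Genotype field and replicate number therefore cannot be told apart in these counts.

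**Figure D1:**
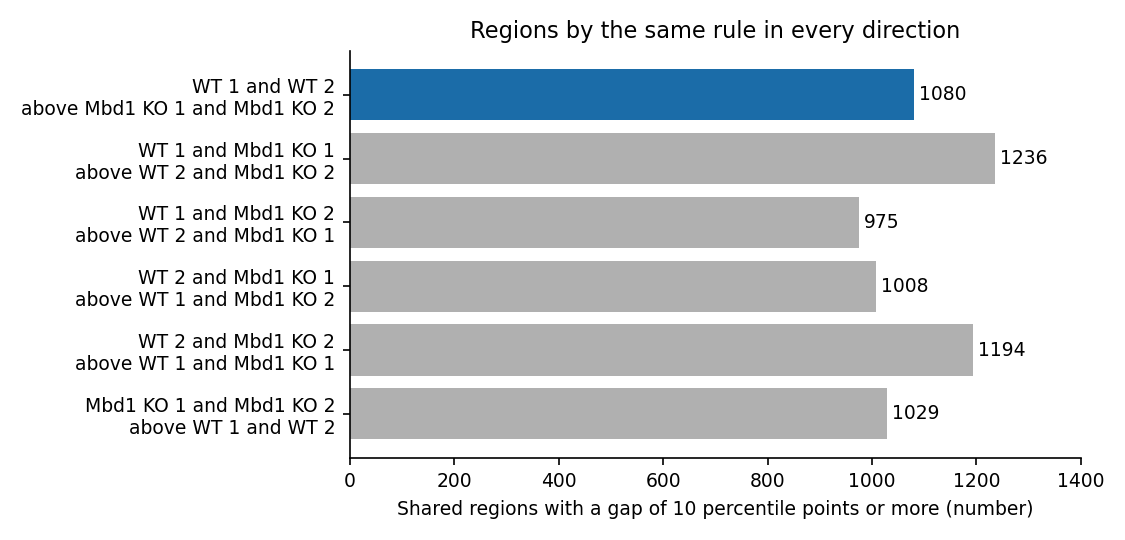
Number of shared regions with a gap of 10 percentile points or more (x axis, regions) for each of the 6 directions in which 4 libraries can be set 2 against 2 (y axis). The titled WT direction (blue) held 1080, within the range of 975 to 1236 of the other 5 (grey).

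Wider gaps were no more frequent for the titles. A margin of 20 or more was held by 231 members, against 224 to 302 regions in the other 5 directions, and a margin of 30 or more by 41, against 33 to 72. The widest margin was 47.7 among the members and between 42.2 and 57.9 elsewhere. Most members lay close to the threshold: the median margin was 14.6, and 569 (52.7%) had a margin under 15.

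Regions chosen in 1 library of each title showed almost no shift in the 2 libraries that took no part in the choice. The 6161 regions at least 10 points higher in WT 1 than in Mbd1 KO 1 differed by a median of 18.9 points there, and by a median of 0.44 (quartiles −11.4 and 12.8) between WT 2 and Mbd1 KO 2. The 6310 regions chosen by WT 2 over Mbd1 KO 2 differed by a median of 0.45 between WT 1 and Mbd1 KO 1. Chosen by WT 1 over Mbd1 KO 2, 6413 regions had a median of −0.95 between WT 2 and Mbd1 KO 1. Chosen by WT 2 over Mbd1 KO 1, 6316 had a median of −0.82 between WT 1 and Mbd1 KO 2. The held-out shift thus followed the titles in 2 of the 4 readings and went against them in the other 2, with an average of −0.22. The 2 readings above 0 were those chosen with same-numbered libraries, and the 2 below 0 those chosen with differently numbered ones.

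The held-out differences were wide to both sides of 0. In the first reading 30.04% of the chosen regions were higher by 10 points or more in the held-out WT library and 27.02% lower by 10 or more, against 23.7% and 23.3% of all shared regions. In the reading of WT 2 against Mbd1 KO 1 the 2 shares were 27.5% and 31.0%, against 23.8% and 24.2%. In both readings the chosen regions had larger shares than all shared regions on either side of 0. Grouped by the genotype field, which is also the grouping by replicate number, the 4 held-out medians were all above 0, from 0.79 to 1.41 points. Regions are not replicates, so these values describe these 4 libraries and have no p.

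**Figure D2:**
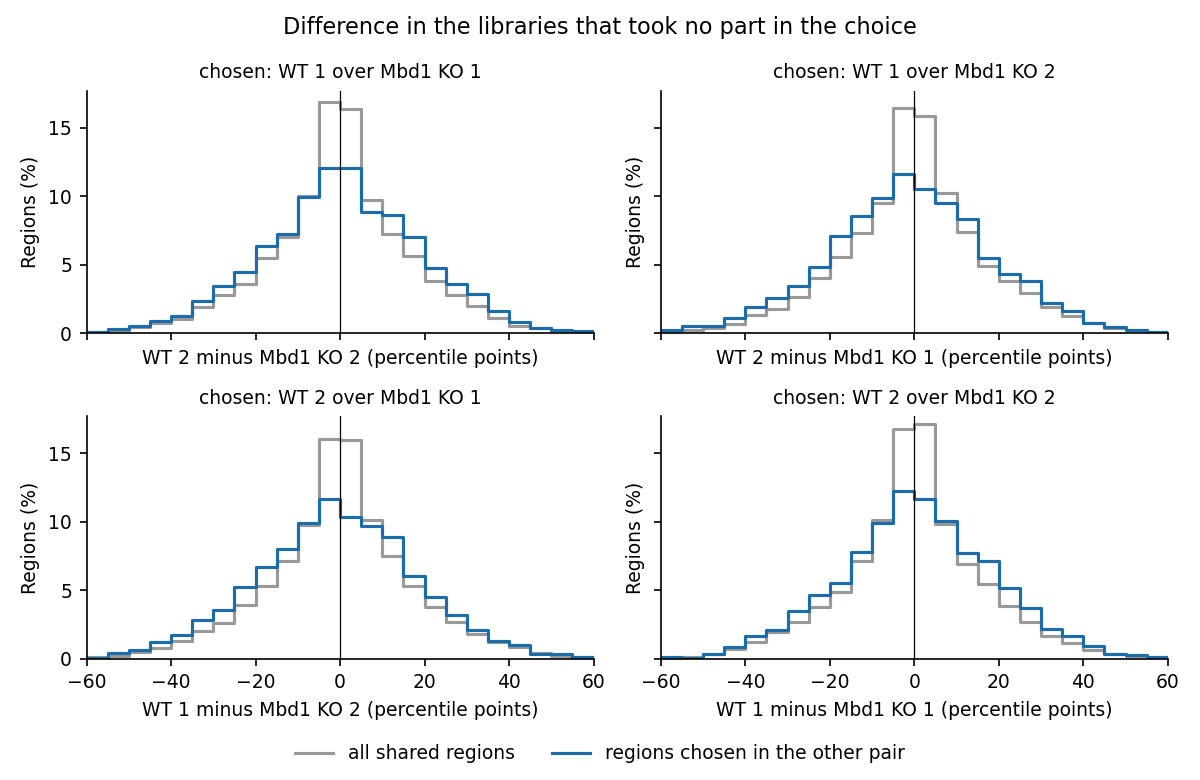
Share of regions (y axis, %) by the WT minus Mbd1 KO difference (x axis, percentile points, bins of 5) in the 2 libraries not used for the choice, for the 4 ways of choosing with 1 library of each title. Regions chosen in the other pair (blue) centre near 0, with medians between −0.95 and 0.45, as all shared regions (grey) do.

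Members were regions of middle to low strength, in part because the rule leaves little room at either end of the percentile scale. Their mean percentile over the 4 libraries ran from 7.77 to 84.8 with a median of 38.03, against a median of 48.0 for all shared regions. In WT 1 their percentiles ran from 12.5 to 98.3 with a median of 50.9, and in WT 2 from 12.1 to 96.8 with a median of 52.0. In Mbd1 KO 1 they ran from 0.015 to 81.8 with a median of 24.3, and in Mbd1 KO 2 from 0.36 to 77.5 with a median of 25.1. The median of the members in the WT libraries was thus close to the middle of all shared regions, and their median in the Mbd1 KO libraries well below it. The regions chosen as higher in Mbd1 KO mirrored this. Their medians were 53.8 and 54.4 in the Mbd1 KO libraries and 25.6 and 25.9 in the WT libraries.

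Among shared regions with a mean percentile of 30 to 40, 253 of 3259 (7.76%) were members. The share was 0.80% below 10 (12 of 1492, against 4 to 10 regions in the other 5 directions), 0.25% between 80 and 90 (6 of 2389), and 0 of 2430 regions above 90. The other 5 directions had 6.32% to 7.52% between 30 and 40, below the members' share, and 0.13% to 0.84% between 80 and 90. Regions in the top class passed the rule in none of the 6 directions. Percentiles are bounded at both ends, so a gap of 10 points leaves little room for a mean in the top or bottom class. The low shares at both ends therefore follow at least in part from the rule. The bound is the same for all 6 directions.

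**Figure D3:**
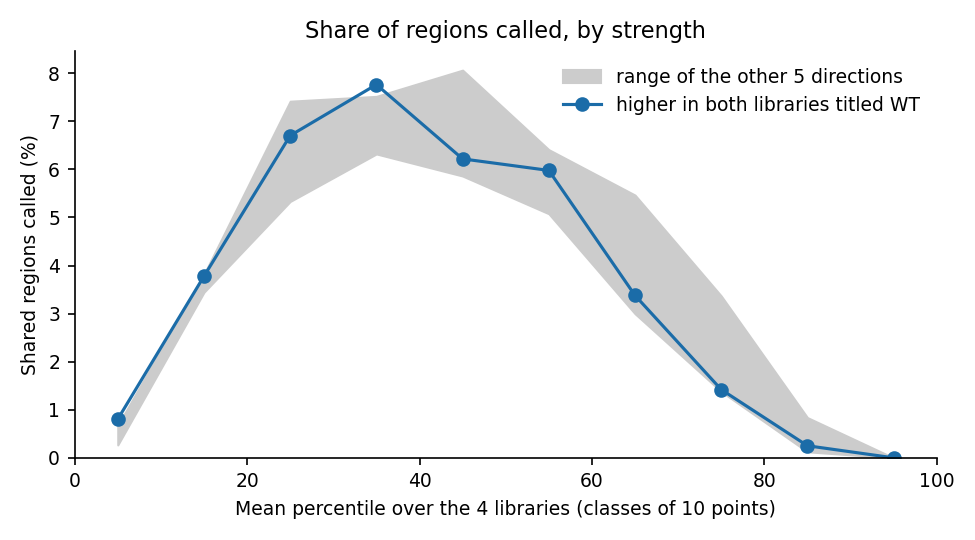
Share of shared regions called (y axis, %) by their mean percentile over the 4 libraries (x axis, classes of 10 points). The members (blue) peak at 7.76% between 30 and 40 and reach 0 above 90, where the rule leaves little room. They lie above the range of the other 5 directions (grey) in that class and below 10.

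The score itself moved in steps at this strength. In each library 63.9% to 66.2% of the shared regions carried a score that at least 50 shared regions had in common. Between percentiles 10 and 50, neighbouring common scores were a median of 0.65 to 0.67 score units and 2.59 to 3.11 percentile points apart, so a gap of 10 points was about 3 to 4 such steps. At the threshold, the members just inside were chr6:18589791-18589835, chr18:33115422-33115466 and chr15:32527053-32527109, with margins of 10.01, 10.02 and 10.03. Just outside were chr2:154205051-154205118, chr6:84967171-84967188 and chr10:75384389-75384429, with margins of 9.98, 9.98 and 9.97. The region on chromosome 6 just inside had percentiles of 82.2 and 80.6 in the WT libraries against 70.6 and 64.3, and the one on chromosome 2 just outside 84.0 and 87.7 against 74.0 and 72.0.

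The member with the widest margin was chr16:4684045-4684072, on the mouse build mm9 as in all positions here. Its percentiles were 74.9 in WT 1, 84.0 in WT 2, 27.2 in Mbd1 KO 1 and 26.5 in Mbd1 KO 2, a margin of 47.7. It was thus among the stronger shared regions in both WT libraries and among the weaker ones in both Mbd1 KO libraries. The third, chr9:40798131-40798150, had 73.57 and 73.62 in the WT libraries against 27.2 and 31.9. The fourth, chr1:10223141-10223179, had 67.6 and 62.9 against 23.1 and 18.5. In both regions the libraries of 1 title lay within 5 points of each other.

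The second member by margin was also the strongest in the WT libraries. At chr18:74427768-74427823 the authors' score was 87.2 in WT 1 and 61.8 in WT 2, and 15.8 in Mbd1 KO 1 and 18.7 in Mbd1 KO 2. These scores put it at percentiles 98.3 and 96.8 against 44.2 and 50.0, a margin of 46.8. Its lower WT percentile of 96.8 was the highest of any member, and in the other 5 directions the highest such value lay between 90.7 and 93.1. The summits of the 4 libraries lay within 56 bp of each other, and each library had 1. Around it, 1 further summit was found within 50 kb, in Mbd1 KO 1 alone, 44.1 kb away with a score of 3.16. The nearest other shared region, chr18:74375723-74375749, was 52.0 kb away and ranked alike everywhere, with percentiles of 98.9 and 99.1 in the WT libraries and 99.1 and 98.5 in the Mbd1 KO libraries. The targeted gene, Mbd1, is on chromosome 18 in the RefSeq gene table of another mouse build (GRCm38). Whether this region lies at Mbd1 was not determined, because no mm9 annotation was used here.

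A further 3 of the 20 members with the widest margin were on chromosome 18. The ninth, chr18:75160086-75160139, had percentiles of 84.0 and 85.6 in the WT libraries against 46.8 and 26.5. The eleventh, chr18:31926516-31926547, had 72.2 and 60.6 against 8.81 and 23.7, and the fourteenth, chr18:51272536-51272576, 77.3 and 66.1 against 30.1 and 13.7. Over the whole chromosome 38 of 955 shared regions (3.98%) were members, near the 4.06% of the genome.

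The other 13 of the 20 were spread over 9 chromosomes, with margins from 33.9 to 38.9. On chromosome 2 these were chr2:66800337-66800371 with a margin of 38.9 and chr2:179514085-179514130 with 35.7. On chromosome 4 they were chr4:40248292-40248352 (38.6) and chr4:141000518-141000560 (37.7), and on chromosome 5 chr5:90793723-90793751 (37.5) and chr5:118426691-118426748 (36.4). Chromosome 13 held chr13:74600191-74600256 (36.4) and chr13:111672915-111672965 (33.9). Single ones were chr16:95404051-95404098 (37.1), chr15:71348801-71348821 (36.0), chr11:108781670-108781718 (34.4), chr1:87496417-87496451 (34.0) and chr10:81590684-81590726 (33.9). The last of these had the least even WT libraries, with percentiles of 82.6 in WT 1 and 47.5 in WT 2 against 11.0 and 13.7.

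**Figure D4:**
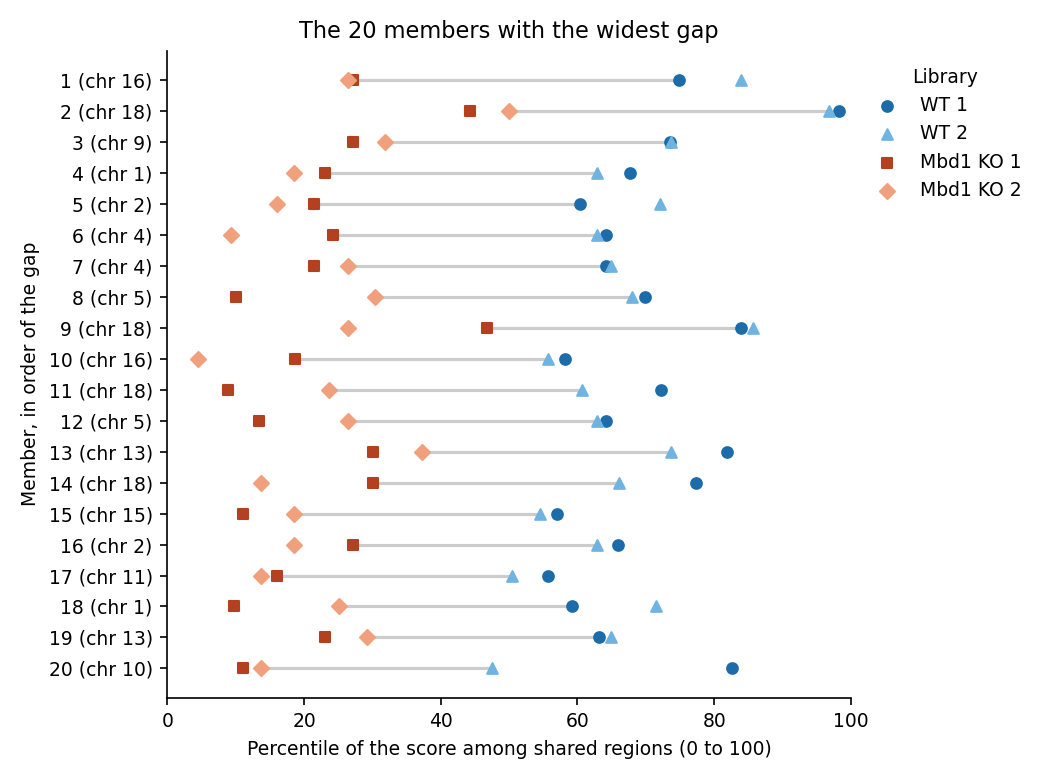
Percentile of the score among shared regions (x axis, 0 to 100) in each library for the 20 members with the widest margin (y axis, in order, with the chromosome). Grey lines mark the margin, from 33.9 to 47.7 points, between the lower WT library and the higher Mbd1 KO library.

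These 20 members were about as narrow as all shared regions, whose median width was 41 bp (quartiles 28 and 60). Each of these members was 20 to 66 bp wide from the first to the last summit. The nearest other shared region lay between 1074 bp and 245 kb away, with a median of 30.9 kb, against 21.6 kb for all shared regions. That neighbour was itself a member for 5 of the 20, against 43 of all 1080 members (3.98%). Its WT mean was above its Mbd1 KO mean for 10 of the 20, against 49.7% of the neighbours of all shared regions. The 20 were picked for their margins, and neither count was made in the other 5 directions, so no clustering is read from them.

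Few members were strong in all libraries, and the same held in the other 5 directions. In 96 of the 1080 members all 4 percentiles were at least 50. In the other 5 directions this held for 86 of 975 to 161 of 1236 regions. The share among all shared regions was not counted. Among the 96 members the widest margin was at chr4:130860632-130860670, with percentiles of 85.9 and 83.1 in the WT libraries against 53.8 and 54.4. It was followed by chr9:61220073-61220111 with a margin of 21.7, chr12:112615973-112615999 with 20.2, chr13:21454655-21454687 with 19.7 and chr1:56839061-56839162 with 18.3. The region on chromosome 13 was the strongest of these 5, with 89.7 and 90.1 against 70.01 and 67.7.

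Neither library of a title was the higher one throughout. The higher of the WT libraries was WT 1 in 534 members (49.4%), and the higher of the Mbd1 KO libraries was Mbd1 KO 1 in 524 (48.5%). The WT libraries differed from each other by a median of 6.37 points at the members, and the Mbd1 KO libraries by 6.69. Over all shared regions these medians were 9.87 and 8.84, and the rule favours small values because it compares the lower of one pair with the higher of the other.

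Members were as narrow and as singly peaked as other shared regions. Their median width was 40 bp (quartiles 27 and 58), against 41 bp (28 and 60) for all shared regions and 43 bp for the regions higher in Mbd1 KO. Each library had exactly 1 summit in 1076 of the 1080 members (99.6%), against 99.8% of all shared regions. The nearest shared region was a median of 20.2 kb away, against 21.6 kb for all and 23.9 kb for those higher in Mbd1 KO.

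The share of members varied little with the distance to the nearest shared region. Where the nearest shared region was 1 to 5 kb away, 160 of 3278 (4.88%) were members and 3.29% were higher in Mbd1 KO. Where it was over 100 kb away, the shares were 3.71% and 4.59%. The other 5 directions ran from 3.29% to 5.09% in the first class and from 3.83% to 4.78% in the second, so the members' share was inside that range in the first class and below it in the second.

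The neighbours of members were members no more often than other shared regions were. The nearest shared region was itself a member for 43 of the 1080 (3.98%), near the 4.06% of all shared regions, and was higher in Mbd1 KO for 46 (4.26%). Among the 1037 neighbours that were no members, the WT mean minus the Mbd1 KO mean had a median of −0.48 points and was above 0 in 45.8%. Over the nearest neighbours of all shared regions these values were −0.032 points and 49.7%. The first pair is lowered by leaving out the neighbours that are members. By distance, the 154 such neighbours 1 to 5 kb away had a median of 1.18 points, with 56.5% above 0. The neighbours of all shared regions gave 0.39 points and 52.5% in that class. In the other distance classes the neighbours of members had medians from −1.29 to −0.27 points.

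The densest group of members was on chromosome X. Of the 2472 windows of 1 Mb with a shared region, 815 held a member, 613 of them exactly 1. The window that starts at 121 Mb of chromosome X held 12 and the one that starts at 120 Mb held 6, while no window held over 6 in any of the other 5 directions. Together these 2 Mb held 18 members among 167 shared regions (10.8%), and 0 regions higher in Mbd1 KO. In the other 5 directions, that of Mbd1 KO included, the same stretch held between 0 and 7 regions.

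Percentiles over the whole stretch, members included, were higher in the WT libraries. The median over its 167 shared regions was 58.1 in WT 1 and 54.1 in WT 2, against 45.7 in Mbd1 KO 1 and 46.7 in Mbd1 KO 2. Both WT libraries ranked above both Mbd1 KO libraries in 64 (38.3%) and below both in 9 (5.39%), against 16.1% and 16.2% of all shared regions. The WT mean was above the Mbd1 KO mean in 120 of the 167 (71.9%), by a median of 4.72 points over all of them. Without the 18 members, both WT libraries ranked above both Mbd1 KO libraries in 46 of 149 (30.9%) and below both in 9 (6.04%). All shared regions without the members gave 12.5% and 16.9%. The WT mean was above the Mbd1 KO mean in 102 of the 149 (68.5%), by a median of 3.64 points over them. The stretch was picked because it held the most members, so none of these values is a test.

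The 18 members of the stretch had margins from 10.2 to 25.8. The widest was at chrX:120508569-120508593, with percentiles of 54.5 and 53.03 in the WT libraries against 27.2 and 17.3. It was followed by chrX:121267280-121267304, with 61.6 and 61.8 against 37.1 and 35.8, and chrX:121167661-121167682, with 67.6 and 60.6 against 30.1 and 37.3. The strongest was chrX:121208578-121208587, with 83.7 and 85.3 against 73.5 and 69.7. In these 4 regions the libraries of 1 title lay within 10 points of each other.

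Shared regions of the stretch were crowded and narrow. Their nearest shared region was a median of 1.39 kb away, against 69.2 kb elsewhere on chromosome X, and their median width was 24 bp against 38.5 bp. Elsewhere on chromosome X, 8 of 320 shared regions (2.5%) were members and 11 (3.44%) were higher in Mbd1 KO. Over the whole chromosome 26 of 487 were members (5.34%), so the stretch supplied 18 of the 26. Whether copy number, repeated sequence or read filters differ at this stretch was not tested. On chromosome Y, 1 of 49 shared regions was a member.

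**Figure D5:**
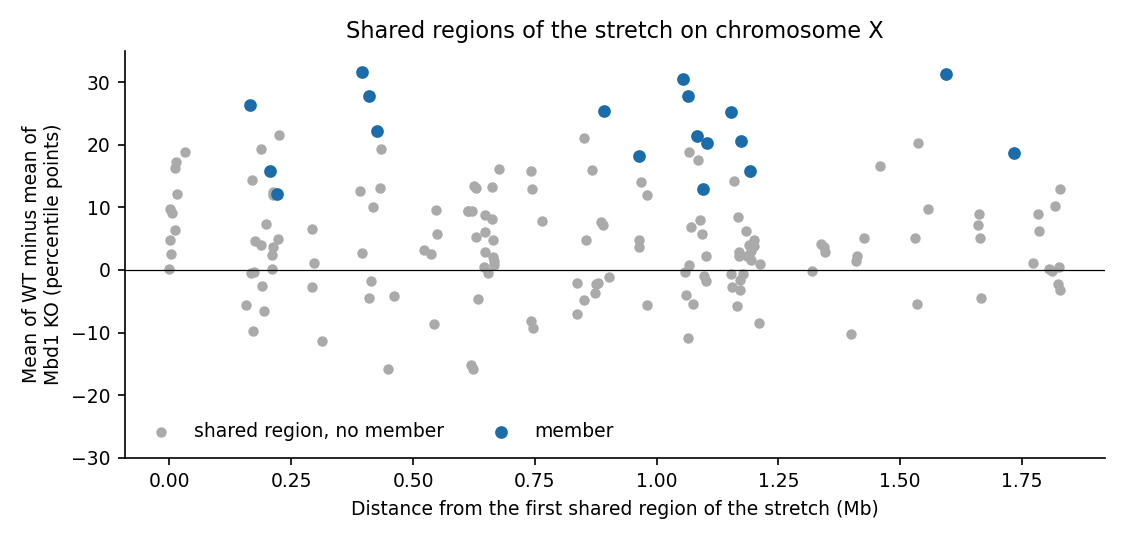
WT mean minus Mbd1 KO mean (y axis, percentile points) of the 167 shared regions in the 2 Mb from 120 Mb of chromosome X, by distance from the first of them (x axis, Mb). The 18 members (blue) are spread along the stretch, and 120 of the 167 regions lie above 0.

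On the autosomes no window held over 5 members. In each of the other 5 directions the fullest window, on any chromosome, held 4 to 6 regions. The windows with 5 members, singled out after their values were seen, were at 79 to 80 Mb of chromosome 14 (of 23 shared regions, 2 of which were higher in Mbd1 KO) and at 84 to 85 Mb of chromosome 15 (of 21, with 0 higher in Mbd1 KO). The widest margin there was at chr15:84146144-84146196, with percentiles of 42.7 and 47.5 in the WT libraries against 6.96 and 11.3. Among the windows with 4 or more members, the one with the highest share was at 74 to 75 Mb of chromosome 13. There 4 of 9 shared regions were members, and the median difference over the 9, members included, was 24.0 points. Neighbours there were chr13:74600191-74600256, with 81.9 and 73.6 against 30.1 and 37.3, and chr13:74631415-74631491, with 80.3 and 76.5 against 53.8 and 47.7, 31.2 kb apart. The other 2 of the 4 were chr13:74776480-74776546 and chr13:74999246-74999293, with margins of 15.3 and 16.1.

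Among the 242 windows with at least 20 shared regions, the median WT minus Mbd1 KO difference ran from −4.62 to 8.36 points. The highest, singled out after its value was seen, was at 3 to 4 Mb of chromosome 9 (8.36 points, 33 regions). There 2 regions were members and 1 was higher in Mbd1 KO. Library medians there were 41.2 in WT 1 and 47.5 in WT 2, against 40.2 in Mbd1 KO 1 and 31.9 in Mbd1 KO 2. The next was at 14 to 15 Mb of chromosome 5 (7.99 points, 31 regions, 4 of them members). Of these 4, chr5:14996851-14996893 was strong in every library, with 89.0 and 94.3 in the WT libraries against 78.5 and 77.5. By chromosome, the share of members ran from 2.63% on chromosome 17 (26 of 989) to 5.61% on chromosome 13 (66 of 1176), leaving out Y and the mitochondrial chromosome. The other 5 directions had 3.13% to 5.36% on chromosome 17 and 2.89% to 4.51% on chromosome 13. Over these chromosomes their shares ran from 2.26% to 6.37%, both on chromosome X, a wider range than that of the members.

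Summits that lay outside the shared regions took no part in the rule. They come from the same 4 libraries whose scores and titles chose the members, so the p-values here are not independent of the choice. Within 10 kb of a member lay 207 of the 11534 such summits of WT 1 (1.79%) and 299 of 20033 in WT 2 (1.49%), against 332 of 29776 in Mbd1 KO 1 (1.11%) and 304 of 23050 in Mbd1 KO 2 (1.32%). Both WT libraries were above both Mbd1 KO libraries. Over the 4 libraries this share fell as the number of outside summits rose, so title and list length cannot be told apart here. The means were 1.64 ± 0.21% and 1.22 ± 0.14% (SD, n = 2 each), a difference of 0.43 percentage points (exact permutation p = 0.33, two-sided, the smallest that 2 libraries against 2 allow). Without WT 1 the difference was 0.28. Within 50 kb the groups overlapped, with 6.81% in WT 1, 5.91% in WT 2, 5.12% in Mbd1 KO 1 and 5.97% in Mbd1 KO 2 (exact permutation p = 0.67, two-sided).

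The same direction was seen near the regions higher in Mbd1 KO, where the means were 1.23 ± 0.13% for WT and 1.03 ± 0.13% for Mbd1 KO (exact permutation p = 0.33, two-sided). Summits near any shared region also took a varying share of the outside summits, from 20.9% in Mbd1 KO 1 to 27.2% in WT 1. Taken as a share of those, the members' surroundings held 6.59% in WT 1, 6.20% in WT 2, 5.32% in Mbd1 KO 1 and 5.34% in Mbd1 KO 2. Around the regions higher in Mbd1 KO the shares were 4.84%, 4.71%, 4.47% and 4.52%. Without the stretch on chromosome X the difference at the members was 0.38 percentage points (exact permutation p = 0.33).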

How the data were processed

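FAIRE-seq libraries of dentate gyrus were sequenced as single 50 bp reads, per the labels' protocols. The submitters' processing notes list Bowtie, SAMtools and MACS2, with no version, and mm9. Calling thresholds, read filters and use of an input are not given in the sources used. The authors deposited 1 list of summits, each 1 base wide, per library, with a score in column 5. The deposited score was taken to be a −log10 value, of p or of q, as MACS2 writes (all lie above 1.30). Scores grow with read depth, which is unknown, so they were used as ranks within a library, ties sharing the mean rank. Groups follow the titles. The members, lists and tests were chosen with earlier results of these data known. Regions named are the 20 widest margins, the 5 widest with all percentiles at least 50, the 3 on either side of the threshold, and the members of the 2 windows of 1 Mb with the most members. The labels do not say whether libraries came from separate animals, so differences may be technical. The 6 directions share the same 4 libraries. Gene names and sequences of the regions were not used here, as the reference tables are of another build. Joining and the rule were tested on simulated lists. Tools were pandas 2.3.3, scipy 1.17.1 and numpy 2.4.6 under Python 3.11.15.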

Additional observations from a re-analysis of the deposited data

How the results depend on the processing

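The number of regions called moved with the gap required: 2079 at 5 points, 511 at 15 and 231 at 20. The other 5 directions gave 1909 to 2329, 481 to 632 and 224 to 302 at these gaps. With scores of at least 10 in all libraries, 705 of 16047 shared regions (4.39%) were called. The other 5 directions gave 622 to 883. Of the 705, 474 were among the 1080 members, which is 43.9% of the members. With percentiles taken among all summits of a library, 139 were called, of which 129 were members. The other 5 directions gave 181 to 2265 there, and the length of each list enters the percentile. With normal quantiles of the ranks and a gap of 0.5, added after the data were seen, 455 were called, of which 406 were members. The other 5 directions gave 444 to 569. Leaving out 1 library gave 3056 (without Mbd1 KO 2) to 3348 (without WT 1), since fewer conditions had to be met. As a replicate block, with a gap of 10 points in both same-numbered pairs, the number called was 1851. What a replicate number marks is not stated, and the genotype field parts the libraries in the same way. Deviations of same-numbered libraries correlated at 0.066 over the shared regions. The other settings, including summits joined within 100 bp (1059), 500 bp (1073) or 1000 bp (1044), autosomes alone (1056) and leaving out the stretch on chromosome X (1064, added later), stayed within 1.5 times of 1080. The average held-out median turned from −0.22 to 1.06 points with the genotype field, and was 0.44 in same-numbered pairs alone. The difference in summits near members turned from 0.43 to −0.049 percentage points with the genotype field; in a replicate block it was 0.43 (exact sign-flip permutation p = 0.5, the smallest 2 pairs allow). Promoter and base composition settings were not run without an mm9 reference. Read depth limits every score and is unknown.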
